A study of Drosophila melanogaster with 17 samples.

Results

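Trehalose is the main sugar of insect blood, and 7 genes of its metabolism and of sugar transport were followed in messenger RNA from the larval fat body of Drosophila melanogaster. The 7 genes were taken by their CG numbers from the 14659 rows of the deposited matrix. They are the synthase Tps1 (CG4104), the trehalose-phosphate phosphatase relatives CG5171 and CG5177, and the trehalase gene Treh (CG9364). The others are the trehalose transporter gene Tret1-1 (CG30035), its neighbour Tret1-2 (CG8234) and the sugar transporter gene CG10960, whose current symbol is nebu. All 7 were above 0 in some libraries. Tps1, Treh, Tret1-1 and CG10960 averaged at least 1 FPKM (fragments scaled to transcript length and library size) over the 17 libraries and entered the fit across genes, while CG5171, CG5177 and Tret1-2 lay below that level.

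The study asked how dietary sugar and the transcription factor Mondo, the fly counterpart of the sugar-responsive factor ChREBP, shape expression in the fat body. The larvae sampled were female, at the wandering stage of the third instar, and were reared from hatching at 25 °C. The groups were knockdown on high sugar with 0.7 M sucrose (2 libraries), knockdown on control food with 0.15 M sucrose (3 libraries), wild type on high sugar (6 libraries) and wild type on control food (6 libraries). Knockdown larvae carried UAS-ChREBPi(52606), a single RNA interference line, together with cgGAL4 and UAS-Dcr2. Wild-type larvae carried cgGAL4 and UAS-Dcr2 in the VDRC w1118 background, so driver and Dicer-2 transgene were common to both genotypes and no group carried a control hairpin. The cgGAL4 driver is active in fat body and also in hemocytes. One label also calls the knockdown genotype a mutant, while the sample names call it a knockdown.

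In insects the fat body makes trehalose and releases it into the hemolymph. Tps1 joins UDP-glucose to glucose-6-phosphate, and a phosphatase step then yields free trehalose. Trehalose leaves and enters cells through facilitative transporters of the Tret1 kind, and trehalase splits it back to glucose in the tissues that use it.

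Replicates 1 to 3 of each group carry the same barcode in the labels, whereas wild-type replicates 4 to 6 each carry one of their own. These are called the shared set and the own set here, and the own set holds no knockdown library. Sequencing depth per library is unknown, because the matrix holds no counts. The knockdown target dmondo (CG18362) stood at 0.187 and 0.286 FPKM in knockdown on high sugar and at 0.310 to 0.535 FPKM in knockdown on control food, against 2.03 to 3.01 FPKM in wild type on high sugar and 1.1 to 1.83 FPKM in wild type on control food. Its knockdown minus wild-type change was -1.62 ± 0.11 on high sugar and -0.89 ± 0.10 on control food (log2 scale, limma adjusted p = 4.7e-08 and 2.3e-05). The summed level of 6 fat body markers (Lsp1alpha, Lsp1beta, Lsp1gamma, Lsp2, Fbp1, Fbp2) was 2361 and 2717 FPKM in knockdown on high sugar, against 5225 to 12201 FPKM in the other libraries, and no fat body marker was at 0. The sum of 4 gut protease genes was 165 and 212 FPKM in knockdown on high sugar and 1.01 to 74.5 FPKM elsewhere. The sum of 6 salivary glue genes was 6545 and 6749 FPKM in knockdown on high sugar, 2014 to 5876 FPKM in the other shared-set libraries and 5.41 to 591 FPKM in the own set. On high sugar the knockdown minus wild-type change also followed transcript length. Its median was 0.46 on the log2 scale for 785 genes under 1000 bases and -0.63 for 624 genes of 2000 bases or more.

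By level, the order over the 17 libraries was Tret1-1 (mean 8.84 FPKM), CG10960 (5.36), Tps1 (5.05), Treh (1.11), Tret1-2 (0.700), CG5171 (0.461) and CG5177 (0.342). In the whole matrix, 707 rows had a higher mean than CG10960 and 2247 had a higher mean than Treh. The spread over libraries was wide, and Tps1 (1.91 to 14.4 FPKM) and Treh (0.389 to 1.58 FPKM) were the one pair of neighbours in this order whose ranges over the 17 libraries did not overlap. The order changed between groups. In knockdown on control food CG10960 was the most abundant of the 7 genes, and in both wild-type groups Tret1-1 was.

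**Figure D1:**
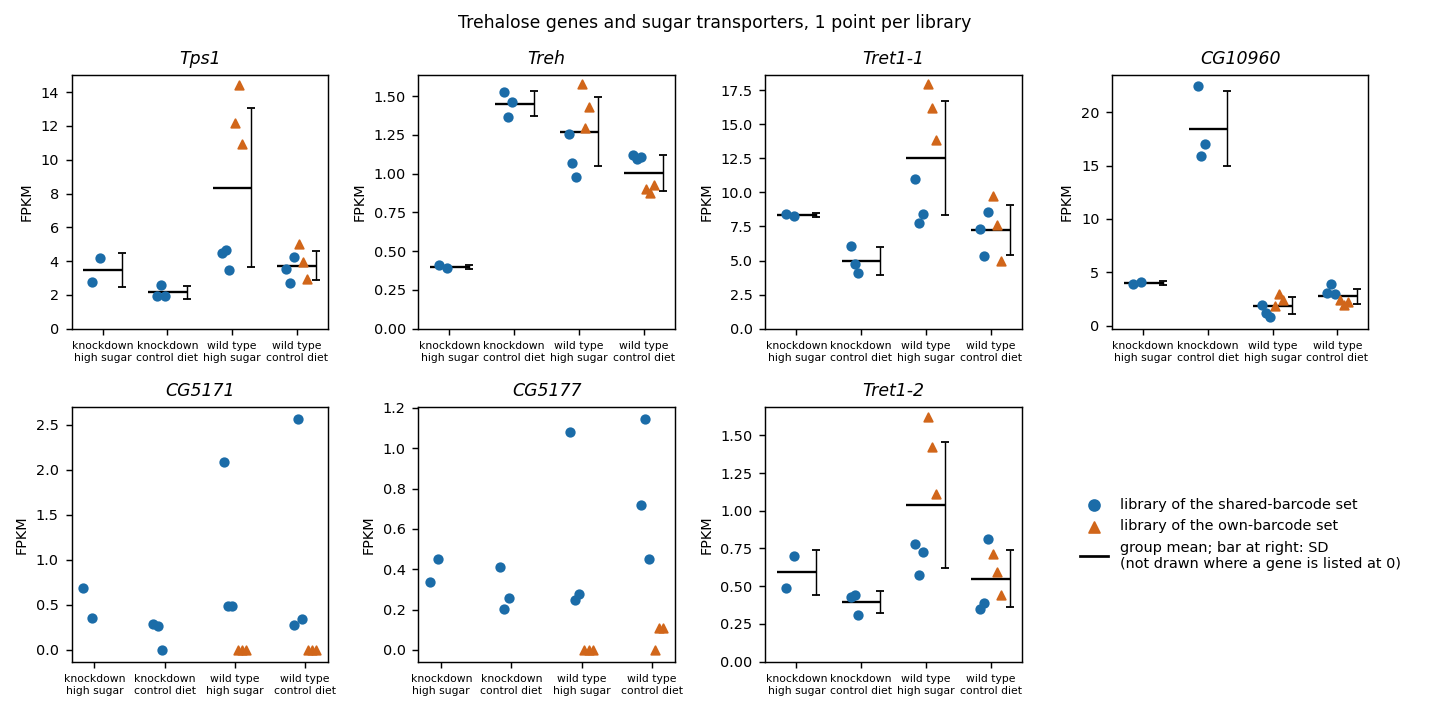
Level of the 7 genes in each of 17 libraries (vertical axis, FPKM, a separate scale for each gene) by group, with circles for the shared set, triangles for the own set, horizontal lines for group means and bars for the SD. CG10960 lies at 15.9 to 22.5 FPKM in knockdown on control food, Treh lies at 0.389 and 0.410 FPKM in knockdown on high sugar, and the highest Tps1 values are those of own-set wild type on high sugar.

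Tps1, the trehalose-6-phosphate synthase, was higher on high sugar than on control food in wild type, and the rise lay in the own set. It measured 12.1, 14.4 and 10.9 FPKM in own-set wild type on high sugar, against 5.03, 3.95 and 2.97 FPKM in own-set wild type on control food. In the shared set it measured 4.47, 4.64 and 3.46 FPKM on high sugar and 3.55, 2.71 and 4.24 FPKM on control food. The diets did not overlap in the own set and overlapped in the shared set. Changes are given on the log2(FPKM + 1) scale, which understates those of low genes, with the standard error of a limma fit and a p adjusted over 2383 genes, called under 0.05.

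Over both sets the Tps1 diet effect in wild type was 0.83 ± 0.21 (limma adjusted p = 0.0145). Within the own set it was 1.45 ± 0.19 (limma adjusted p = 5.6e-05) and within the shared set 0.21 ± 0.19 (limma adjusted p = 0.608). The difference between the sets passed the test, at 1.24 ± 0.27 (limma adjusted p = 0.0059). With no set term in the model the pooled rise was no longer called (adjusted p = 0.0912).

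In the own set the tissue markers also divided by diet. The fat body sum was 10397 to 12201 FPKM on high sugar and 5225 to 7113 FPKM on control food. The hemocyte sum (5 genes) was 0 to 0.199 FPKM on high sugar, where 1 library listed all 5 at 0, and 8.05 to 11.5 FPKM on control food. The glue sum was 5.41 to 18.5 FPKM on high sugar and 33.3 to 591 FPKM on control food, and the gut sum 1.01 to 1.09 FPKM on high sugar and 3.09 to 42.9 FPKM on control food. The diets overlapped for none of these lists, and for muscle they did. Their part in the own-set diet effects of Tps1, and of Treh, Tret1-1 and Tret1-2 below, was not tested.

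Tps1 in knockdown measured 2.78 and 4.21 FPKM on high sugar and 1.91, 2.57 and 1.95 FPKM on control food. All 3 knockdown libraries on control food lay below the lowest of the 6 wild-type libraries on that food, which was 2.71 FPKM. The fitted difference was -0.20 ± 0.28 (limma adjusted p = 0.742), and -0.51 (adjusted p = 0.15) over the shared-set libraries alone. On high sugar the genotypes overlapped, and the difference was -0.53 ± 0.31 (limma adjusted p = 0.157), or 0.079 without the trend of value with transcript length described above. The diet effect in knockdown was 0.50 ± 0.33 (limma adjusted p = 0.199). It did not pass the threshold as fitted, and it was 1.09 (adjusted p = 0.0095) once that trend was removed from each library. The diet effects of the 2 genotypes differed by -0.33 ± 0.39 (limma adjusted p = 0.50), a value that turned positive, 0.29, in the shared set alone and 0.30 without the length trend.

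CG5171 and CG5177 resemble trehalose-phosphate phosphatases and lie on chromosome arm 2L on the same strand, with 1 other gene starting between them. If the pair holds near-identical stretches, reads from them could be split in ways the sources do not state. The sequences were not compared. CG5171 measured 0.682 and 0.349 FPKM in knockdown on high sugar and 0.288, 0.261 and 0 FPKM in knockdown on control food. In shared-set wild type it measured 2.09, 0.489 and 0.486 FPKM on high sugar and 0.278, 2.56 and 0.347 FPKM on control food, and all 6 own-set libraries listed it at 0. A single library in each wild-type diet group was therefore far above the others.

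CG5177 was above 0 in all 5 knockdown libraries, at 0.338 and 0.453 FPKM on high sugar and 0.413, 0.204 and 0.256 FPKM on control food. In shared-set wild type it measured 1.08, 0.250 and 0.277 FPKM on high sugar and 0.717, 1.15 and 0.451 FPKM on control food. In the own set it was listed at 0 in all 3 libraries on high sugar and at 0, 0.111 and 0.111 FPKM on control food. The highest values of both genes came from the same libraries, replicate 1 of wild type on high sugar and replicate 2 of wild type on control food. In those libraries the summed muscle markers Mhc, Act57B and Mlc2 were 3.31 and 9.03 FPKM and the summed gut proteases 48.1 and 59.0 FPKM, against 0.795 to 1.32 FPKM for muscle and 1.01 to 42.9 FPKM for gut in the own set. Some other shared-set libraries, where CG5171 was at most 0.682 FPKM, had higher marker sums. The gut sum was 165 and 212 FPKM and the muscle sum 6.24 and 11.7 FPKM in knockdown on high sugar. In replicate 2 of wild type on high sugar the gut sum was 74.5 FPKM. The part of muscle and gut in the CG5171 and CG5177 values was not tested.

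For both genes the wild-type diet effect was tested by permuting diet labels within each barcode set, an exact 2-sided test with 400 arrangements whose smallest possible p is 0.005. CG5171 differed by 0.026 (exact permutation p = 0.8, unadjusted) and CG5177 by -0.16 (exact permutation p = 0.24, unadjusted). Without replicate 1 of wild type on high sugar the values were -0.21 for CG5171 and -0.32 for CG5177. Neither was called when all genes above 0 were fitted without a filter (limma adjusted p = 1 and 0.534). CG5171 and CG5177 set against each other across libraries are drawn beside Tps1 and Treh.

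**Figure D2:**
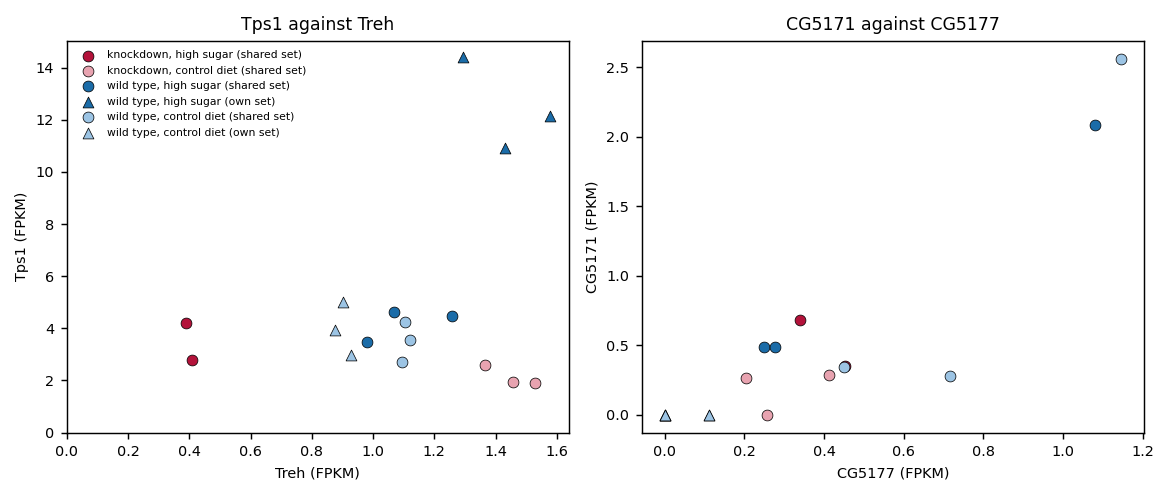
Left, Tps1 (vertical, FPKM) against Treh (horizontal, FPKM), 1 point per library. Right, CG5171 against CG5177 in FPKM, where the own-set libraries of wild type lie at or near the origin and several coincide. Circles are shared-set libraries and triangles own-set libraries. On the left, knockdown on high sugar lies at Treh 0.389 and 0.410 FPKM and knockdown on control food at 1.37 to 1.53 FPKM.

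Treh, which encodes trehalase, had its lowest values in knockdown on high sugar. It measured 0.410 and 0.389 FPKM there, against 1.53, 1.37 and 1.46 FPKM in knockdown on control food. Wild type on high sugar ranged from 0.980 through a median of 1.28 to 1.58 FPKM, and wild type on control food from 0.874 through a median of 1.01 to 1.12 FPKM. Both knockdown libraries on high sugar lay below every other library, and all 3 knockdown libraries on control food lay above all 6 wild-type libraries on that food.

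The diet effect on Treh in knockdown was -0.81 ± 0.12 (limma adjusted p = 3.8e-05), and knockdown minus wild type on high sugar was -0.67 ± 0.11 (limma adjusted p = 0.00012). Diet effects in the genotypes differed by -0.98 ± 0.14 (limma adjusted p = 5.8e-05), with the direction unchanged when any single library was left out. In the shared set alone the 3 values stayed called, at -0.81, -0.58 and -0.80 (limma adjusted p = 6.6e-05, 0.00054 and 0.0009). All 3 calls were lost once the length trend was removed, at -0.22 (adjusted p = 0.185), -0.066 (adjusted p = 0.687) and -0.36 (adjusted p = 0.077). That removal can shift long genes at low FPKM too far. It gave the knockdown target dmondo a called diet rise in knockdown, 0.64 (limma adjusted p = 0.0009). The mean dmondo level in knockdown was lower on high sugar, 0.236 FPKM against 0.439 FPKM on control food. The lost calls therefore do not show that Treh was unchanged. The Treh transcript has a median length of 2928 bases, and genes of 2000 bases or more had a median of -0.63 for knockdown minus wild type on high sugar. The fat body marker sum was lowest and the gut and glue sums highest in the same 2 libraries, and their part in the Treh values was not tested. In whole tissue, fewer cells of a type and less RNA per cell cannot be told apart.

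Knockdown minus wild type on control food was 0.31 ± 0.10 for Treh (limma adjusted p = 0.0853), short of the threshold although the groups did not overlap. The same comparison passed it after quantile normalization, at 0.41 (adjusted p = 0.031). In wild type the diet effect was 0.18 ± 0.07 (limma adjusted p = 0.131). It was 0.36 ± 0.08 in the own set (limma adjusted p = 0.0039) and -0.0050 ± 0.081 in the shared set (limma adjusted p = 0.983). The difference between the sets, 0.36 ± 0.11 (limma adjusted p = 0.0403), lost its call in 10 of 12 runs without 1 wild-type library, with adjusted p of up to 0.0967.

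The ratio of Tps1 to Treh compares synthase with trehalase inside a library, and their median transcript lengths are nearly equal, 2920 and 2928 bases. It was 6.79 and 10.8 in knockdown on high sugar and 1.25, 1.34 and 1.89 in knockdown on control food. In wild type it ran from 3.53 through a median of 5.98 to 11.1 on high sugar and from 2.48 through a median of 3.52 to 5.57 on control food. In knockdown the diets did not overlap, and on control food the genotypes did not overlap, with knockdown lower. On high sugar the genotypes overlapped. The ratio shows that the genes changed unequally and not which of them moved, and it was not tested. Exons of Tps1, CG5177 and Treh overlap on the opposite strand with CG3652, CG5181 and Rbpn-5, and whether the counting used strand is not given in the sources used here.

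Tret1-1, the gene of a facilitated trehalose transporter, was higher on high sugar than on control food in wild type. It measured 17.9, 16.2 and 13.8 FPKM in own-set wild type on high sugar, against 9.76, 7.61 and 5.00 FPKM in own-set wild type on control food. In the shared set it measured 10.97, 7.78 and 8.44 FPKM on high sugar and 7.31, 5.34 and 8.57 FPKM on control food. The diets did not overlap in the own set and overlapped in the shared set. The own-set libraries on high sugar are those with the higher fat body and lower hemocyte sums given for Tps1.

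The Tret1-1 diet effect in wild type was 0.68 ± 0.18 (limma adjusted p = 0.0181). It was 1.04 ± 0.22 in the own set (limma adjusted p = 0.0022) and 0.33 ± 0.22 in the shared set (limma adjusted p = 0.460). The difference between the sets was 0.71 ± 0.31 (limma adjusted p = 0.115), and without replicate 4 of wild type on control food it was called, at 0.91 (adjusted p = 0.0482). With no set term the pooled effect was no longer called (adjusted p = 0.0647).

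In knockdown Tret1-1 measured 8.41 and 8.24 FPKM on high sugar, against 6.09, 4.74 and 4.07 FPKM on control food, with no overlap. The diet effect of 0.66 ± 0.28 fell just short of the threshold (limma adjusted p = 0.056). It was called in the shared set alone (adjusted p = 0.0262), without the length trend (1.14, adjusted p = 0.0012), and without replicate 3 of wild type on control food (adjusted p = 0.0442), replicate 6 of wild type on control food (adjusted p = 0.0238) or replicate 1 of knockdown on control food (0.79, adjusted p = 0.0396). Knockdown minus wild type was -0.28 ± 0.27 on high sugar (limma adjusted p = 0.388) and -0.25 ± 0.24 on control food (limma adjusted p = 0.608), and the genotypes overlapped on both foods. The high-sugar value was 0.23 without the length trend. The diet effects of the genotypes differed by -0.024 ± 0.33 (limma adjusted p = 0.962), a value whose sign changed with the libraries and settings used.

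Tret1-2 lies next to Tret1-1 on chromosome arm 2R, on the same strand with no gene starting between them, and was far less abundant. It measured 0.488 and 0.697 FPKM in knockdown on high sugar, against 0.429, 0.443 and 0.308 FPKM in knockdown on control food. In own-set wild type it measured 1.62, 1.43 and 1.11 FPKM on high sugar and 0.716, 0.591 and 0.440 FPKM on control food. In the shared set it measured 0.783, 0.574 and 0.724 FPKM on high sugar and 0.350, 0.390 and 0.813 FPKM on control food. As for Tret1-1, the diets overlapped in the shared set of wild type and not in the own set.

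The wild-type diet effect on Tret1-2 was 0.38 (exact permutation p = 0.02, unadjusted), and 0.30 to 0.45 over runs without 1 library. It did not pass the threshold once that p was adjusted over the 3 genes tested this way, except without replicate 3 of wild type on control food or replicate 1 of wild type on high sugar. In the fit without a filter it was 0.38 ± 0.098 and passed the threshold (limma adjusted p = 0.0444). The ratio of Tret1-1 to Tret1-2, on values per length, was 11.8 and 17.3 in knockdown on high sugar and 10.7 to 14.2 in knockdown on control food, against 11.1 to 14.0 in wild type on high sugar and 10.5 to 20.9 in wild type on control food. These ranges overlapped in every pairing of groups. If the neighbouring genes hold near-identical stretches, reads from them could be assigned to either gene, and the sequences were not compared.

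CG10960, a member of the facilitative sugar transporter family, had its highest level in knockdown on control food. It measured 22.5, 15.9 and 17.1 FPKM there, against 3.06, 3.92, 2.93, 2.41, 1.93 and 2.24 FPKM in wild type on control food. Knockdown on high sugar measured 3.87 and 4.12 FPKM, against 1.96, 1.21, 0.782, 1.85, 2.99 and 2.39 FPKM in wild type on high sugar. Knockdown lay above wild type without overlap on each food, and knockdown on control food lay above every other library.

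Knockdown minus wild type on control food was 2.42 ± 0.24 for CG10960 (limma adjusted p = 1.4e-05), with a range of 2.28 to 2.57 over runs without 1 library. Group means were 18.5 ± 3.50 FPKM (SD, n = 3) in knockdown and 2.75 ± 0.711 FPKM (SD, n = 6) in wild type. On this food the marker sums overlapped between knockdown and the shared set of wild type for fat body, gut, glue and hemocytes, and not for muscle, at 3.17 to 3.76 FPKM in knockdown and 5.80 to 9.03 FPKM in shared-set wild type. The part of muscle in the CG10960 difference was not tested. The sums were 7662 to 9015 FPKM in knockdown and 8214 to 9435 FPKM in shared-set wild type for fat body, and 37.8 to 58.4 FPKM in knockdown and 6.36 to 59.0 FPKM in shared-set wild type for gut. Over the shared set alone the difference was 2.17 (adjusted p = 0.00016), and without the length trend it was 2.41.

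Knockdown minus wild type on high sugar was 0.89 ± 0.28 for CG10960 (limma adjusted p = 0.012). The call was lost without either knockdown library on high sugar, at 0.92 (adjusted p = 0.0511) without replicate 1 and 0.85 (adjusted p = 0.072) without replicate 2. The size changed little, and with 1 library left in the group its spread is assumed to be that of the other groups. With all libraries this genotype difference was 1.43 (adjusted p = 0.00055) without the length trend. Over the shared set alone it was 1.14 (limma adjusted p = 0.0017). The diet effect in knockdown was -1.95 ± 0.29 (limma adjusted p = 4.7e-05), and the effects of the genotypes differed by -1.53 ± 0.35 (limma adjusted p = 0.0019). The difference remained called in the shared set alone, at -1.03 (adjusted p = 0.019), and without the length trend, at -0.98 (adjusted p = 0.031).

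In wild type the diet effect on CG10960 was -0.42 ± 0.18 (limma adjusted p = 0.143), and the sets differed. High sugar gave 1.96, 1.21 and 0.782 FPKM in the shared set, all below the 2.93 to 3.92 FPKM of control food, with an effect of -0.92 ± 0.19 (limma adjusted p = 0.0097). In the own set high sugar gave 1.85, 2.99 and 2.39 FPKM, overlapping the 1.93 to 2.41 FPKM of control food, with an effect of 0.083 ± 0.19 (limma adjusted p = 0.786). The difference between the sets was 1.00 ± 0.26 (limma adjusted p = 0.0163).

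**Figure D3:**
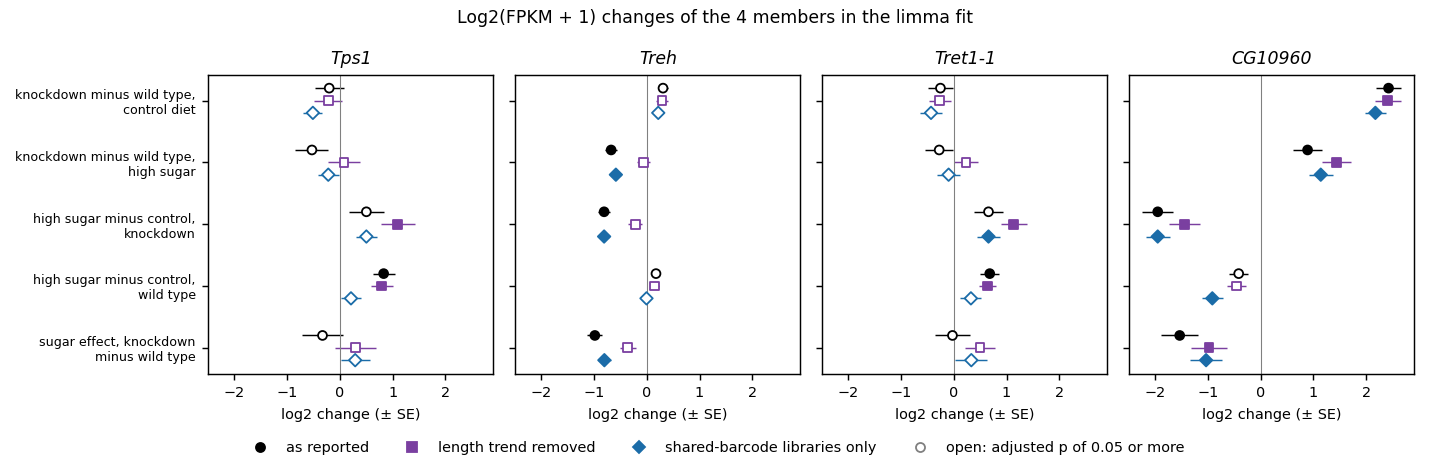
Log2(FPKM + 1) change with its standard error (horizontal axis) of Tps1, Treh, Tret1-1 and CG10960 in 5 comparisons, as fitted (circles), without the length trend (squares) and in the shared set alone (diamonds). Filled symbols have an adjusted p under 0.05. The CG10960 rise of 2.42 in knockdown on control food is seen in all 3 versions, whereas the Treh fall of 0.67 in knockdown on high sugar is near 0 without the length trend.

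Counted by comparison, the 4 fitted genes moved as follows. Knockdown minus wild type on high sugar called 1 gene higher (CG10960), where 27.2% of all tested genes were called higher, and 1 lower (Treh), where 33.4% were called lower. Knockdown minus wild type on control food called 1 gene higher, CG10960, and none lower, where 3.02% of tested genes were called higher and 2.6% lower. High sugar minus control food in knockdown called none higher and 2 lower, CG10960 and Treh, beside 29.2% called higher and 31.1% lower among all tested genes. In wild type the same diet contrast called 2 genes higher, Tps1 and Tret1-1, and none lower, beside 9.44% higher and 6.08% lower.

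The difference of diet effects between genotypes called CG10960 and Treh, both lower in knockdown, where 23.5% of tested genes were called higher and 28.3% lower. In the own set of wild type 3 of the 4 were called higher on high sugar and none lower, beside 21.4% higher and 12.1% lower. In the shared set none was called higher and 1 lower, CG10960, beside 1.68% higher and 4.7% lower. For the own set minus the shared set 3 were called higher and none lower, beside 13.7% higher and 6.17% lower. The median change of the 4 genes for diet in wild type was 0.43, against 0.02 over all tested genes. For knockdown minus wild type it was -0.40 on high sugar, beside -0.08 over all genes, and 0.05 on control food, beside -0.03. Comparisons that use the same libraries, such as those that use knockdown on high sugar, are not independent of each other.

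**Figure D4:**
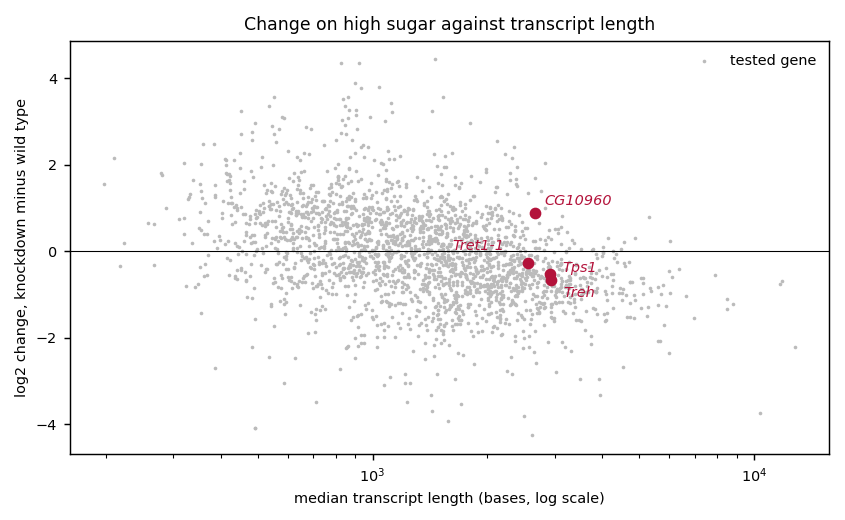
Knockdown minus wild-type log2 change on high sugar (vertical axis) against median transcript length (bases, log scale) for tested genes with a length, with the 4 fitted genes in red. Genes of 2000 bases or more have a median of -0.63, near the Treh and Tps1 values of -0.67 and -0.53, while CG10960 lies above them at 0.89.

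Enzymes that supply hexose phosphate and UDP-glucose or turn over glycogen were taken as a list of 10 genes, of which 6 were fitted. In wild type 4 of the 6 rose on high sugar and none fell, with a median of 0.51, beside 9.44% of all tested genes called higher and a median of 0.02. GlyP, glycogen phosphorylase, changed by 0.52 ± 0.11 (limma adjusted p = 0.005), Pgi, phosphoglucose isomerase, by 0.88 ± 0.21 (limma adjusted p = 0.0103) and UGP, which makes UDP-glucose, by 0.51 ± 0.15 (limma adjusted p = 0.0304). AGBE, the glycogen branching enzyme, was the other, at 0.56, and was named after its value was seen. As for Tps1, the rise lay in the own set, where 5 of 6 were called higher beside 21.4% of all tested genes, while 0 of 6 were in the shared set beside 1.68%. The fat body sum of the own set was also higher on high sugar, as given for Tps1, and its part was not tested.

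In knockdown minus wild type on high sugar 4 of the 6 supply genes were lower and none higher, with a median of -0.86, beside 33.4% of all tested genes called lower, 27.2% called higher and a median of -0.08. GlyP fell by 0.94, UGP by 0.91 and Pgm, phosphoglucomutase, by 0.80 on the log2 scale, and only UGP and Pgm were still called once the length trend was removed, at -0.56 and -0.54 (adjusted p = 0.0441 and 0.0442). On high sugar UGP stood at 3.24 and 3.57 FPKM in knockdown and at 5.37 to 6.84 FPKM in wild type, without overlap. On control food 0 of 6 passed the limma test between genotypes, beside 3.02% of all tested genes called higher and 2.6% lower. Of the 6, 3 were at an unadjusted p under 0.05, a count that is not comparable with these adjusted shares. In the shared set alone AGBE was lower in knockdown, at -0.75 (limma adjusted p = 0.0277), beside 85 of 2383 tested genes called lower. High sugar in knockdown raised 1 supply gene and lowered 3, beside 29.2% of tested genes called higher and 31.1% lower, among them Pgm (-1.10 ± 0.23, limma adjusted p = 0.00081), UGP (-0.92 ± 0.23, limma adjusted p = 0.0035) and Hex-A, a hexokinase (-0.52 ± 0.16, limma adjusted p = 0.0106). The diet effects of the genotypes differed for 4, all lower in knockdown, beside 28.3% of all tested genes called lower and 23.5% higher. UGP led them at -1.43 ± 0.28 (limma adjusted p = 0.00063). Without the length trend UGP and Pgm were the 2 still called for the difference of diet effects, beside 547 of 2321 tested genes called lower. Hex-A was then at -0.061 for diet in knockdown.

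A list of 23 other sugar transporter genes held 7 that were fitted and 5 that were listed at 0 in every library. In wild type high sugar lowered Slc45-1 (CG4484), the fly member of a sucrose transporter family, by 0.78 ± 0.13 (limma adjusted p = 0.0015). CG31100 was raised by 0.49 ± 0.15 (limma adjusted p = 0.0387). Within the own set 2 of the 7 were called higher on high sugar and 5 lower, beside 21.4% and 12.1% of all tested genes. In the shared set none was called higher and 1 lower, beside 1.68% and 4.7%. The own set minus the shared set called 2 higher and 4 lower, beside 13.7% and 6.17%. Over the shared-set libraries alone CG31100 changed by 0.095 (limma adjusted p = 0.853). Slc45-1 also fell on high sugar in knockdown, by 1.11 ± 0.21 (limma adjusted p = 0.00034). It measured 2.88 and 4.74 FPKM in knockdown on high sugar and 8.43 to 10.4 FPKM in knockdown on control food, against 2.86 to 3.95 FPKM in wild type on high sugar and 4.94 to 8.59 FPKM in wild type on control food. In each genotype the diets did not overlap, as for CG10960 in knockdown.

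Between genotypes on control food 0 of the 7 other transporters passed the limma test, 3 of them at an unadjusted p under 0.05, while CG10960 passed it. Of all tested genes 3.02% were called higher there and 2.6% lower at the adjusted threshold, shares not comparable with the unadjusted count. In the shared set alone 2 of the 7 were lower in knockdown, beside 85 of 2383 tested genes. On high sugar 2 of the 7 were higher in knockdown and 2 lower, shares near the 27.2% higher and 33.4% lower of all tested genes. Without the length trend 3 were higher and 1 lower, beside 603 of 2321 tested genes called higher and 652 lower. Slc45-1 gained a call there, at 0.61 (limma adjusted p = 0.008). CG31100 was lower by 1.48 on the log2 scale, at a mean of 1.09 FPKM in knockdown against 3.07 FPKM or more in wild type, and sut1 was lower by 0.82, or by 0.36 with no call (adjusted p = 0.222) without the length trend. CG15406 was higher, with a change of 1.53, or 0.90 (limma adjusted p = 0.00086) over the shared set alone. Own-set wild type on control food held it at 6.35 to 6.68 FPKM. On high sugar it stood at 5.15 and 6.03 FPKM in knockdown. Wild type on high sugar held 2.25 to 2.90 FPKM in the shared set and 0.582 to 1.11 FPKM in the own set. The gut protease sums of the same libraries were 165 and 212 FPKM in knockdown on high sugar and 1.01 to 74.5 FPKM in wild type on high sugar, and their part in the CG15406 values was not tested. In knockdown high sugar raised 2 and lowered 1 of the 7 (Slc45-1), beside 29.2% higher and 31.1% lower of all tested genes. The diet effects of the genotypes differed for 3, with 2 higher and 1 lower in knockdown, beside 23.5% higher and 28.3% lower. Without the length trend 2 were called, both higher, beside 527 of 2321 tested genes called higher and 547 lower.

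Genes whose pattern over the 17 libraries was closest to each fitted gene were found by Pearson correlation of log2(FPKM + 1) among the 2383 tested genes. The libraries share 4 groups and 2 barcode sets, so these values describe likeness and are not tests. Tps1 was closest to CG4389, the mitochondrial trifunctional protein alpha subunit (r = 0.97), CG1516, pyruvate carboxylase (0.96), and CG12130, also named Pal1 (0.96). Treh was closest to TepII, a thioester-containing protein gene (0.96), egr, the fly tumour necrosis factor (0.96), and Mtp, a microsomal triglyceride transfer protein gene (0.94). Tret1-1 was closest to CG5577 (0.94), Gel, a gelsolin (0.94), and Ance-4, of the angiotensin-converting enzyme family (0.93). CG10960 was closest to CG6910, myo-inositol oxygenase (0.91), CG32407 (0.90) and CG4793 (0.90). For CG32407 the Spearman value was 0.62.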

How the data were processed

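Messenger RNA from fat body was measured in 17 libraries. Per the submitters' processing notes, the authors used Bowtie 0.12.7, TopHat 1.3.2 and Cufflinks 1.1.0 with build dm3. The deposited values are taken as FPKM from that tool list, since the header names no unit. Column totals of 29778.6 to 62263.5 leave room for a further scaling, and the annotation and options are not given in the sources used here. Depth is therefore unknown, no counting interval is given, and a gene without a value above 0 is called listed at 0. No library had a value above 0 for 4963 of the 14659 rows, and no columns were identical.

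Values were analysed as log2(FPKM + 1) with limma 3.58.1 in R 4.3.3, on the 2383 genes whose mean over all libraries reached 1 FPKM. One model held 4 groups plus an additive term for barcode set, with trended, robust empirical Bayes, 2-sided tests, Benjamini-Hochberg adjustment over all tested genes and a threshold of 0.05. The set term assumes a like set effect on both diets, so a second model, with its own mean for every combination of group and set, gave the wild-type diet effect within sets. As the own set holds wild type alone, the genotype comparisons borrow the set term from it. Log2 changes can differ from ratios of the means printed. Genes under the filter were tested in wild type by exact permutation within sets, with p-values printed unadjusted, and in a limma fit of every gene above 0 in some library. The labels call the libraries biological replicates without naming cultures, so p-values measure the spread between these libraries.

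Transcript lengths came from the BDGP6 annotation, matched through gene names for 2321 tested genes (97.4%). As an alternative a loess curve (span 0.5) of value on length was subtracted in each library. The curve is the same for genes of all levels, so this can shift long genes at low FPKM too far, as for dmondo. The other alternatives were a pseudocount of 0.1, a minimum mean of 5 FPKM or none, median scaling, quantile normalization, no set term, the shared set alone, a replicate block and leaving out each library. On simulated data with 200 changed genes the fit was checked for recovery. The 7 genes and the lists were chosen with earlier results of these data known. Named genes are the 7, the knockdown target, up to 3 genes per list and comparison with the smallest p, and for each fitted gene the 3 most correlated genes. One hemocyte marker, PPO1, was not matched and is not used here. The 5 other hemocyte markers summed to 1.52 and 2.00 FPKM in knockdown on high sugar, 1.62 to 2.09 FPKM in knockdown on control food, 0 to 1.71 FPKM in wild type on high sugar and 1.40 to 11.5 FPKM in wild type on control food.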

Additional observations from a re-analysis of the deposited data

Results flagged for a closer look

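A single library stood far above the rest of its group for both phosphatase relatives. CG5171 reached 2.09 FPKM in replicate 1 of wild type on high sugar and 2.56 FPKM in replicate 2 of wild type on control food, and CG5177 reached 1.08 FPKM in replicate 1 of wild type on high sugar. In each case the gap to the next library, divided by the range of the group, exceeded Dixon's 95% critical value. The 7 genes in the 2 wild-type groups gave 14 such examinations. The nominal rate of 1 in 20 by chance holds for draws from a single normal distribution. These groups mix 2 barcode sets, and 3 of the 6 CG5171 values in each were 0, so that rate does not apply to them.

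The diet effect differed between the genotypes, by a test of the difference itself, for Treh and CG10960. The difference, knockdown minus wild type, was -0.98 for Treh and -1.53 for CG10960 on the log2 scale (limma adjusted p = 5.8e-05 and 0.0019). The value of CG10960 remained past the threshold without the length trend, at -0.98, and that of Treh did not, at -0.36. In the shared set alone both remained past it, at -1.03 for CG10960 and -0.80 for Treh.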

How the results depend on the processing

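Among the values of the 7 genes under the alternatives, 691 kept their direction and their side of the threshold, 22 lost a call, 19 gained one and 22 changed sign. None of the values that changed sign had passed the threshold. The Tret1-1 difference of diet effects between genotypes was 0.0050 with a pseudocount of 0.1, 0.33 in the shared set alone, 0.50 without the length trend and -0.13 to 0.12 over runs without 1 library. The corresponding Tps1 value was 0.29 in the shared set alone and 0.30 without the length trend. Without that trend, knockdown minus wild type on high sugar was 0.079 for Tps1 and 0.23 for Tret1-1. The Treh diet effect in shared-set wild type was -0.0050 with the shared set alone, 0.013 after median scaling and -0.057 to 0.037 over runs without 1 library. The CG10960 effect in the own set was -0.037 to 0.21 and the CG5171 effect in wild type -0.21 to 0.31 over such runs. The causes were not tested.

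Counts of called genes followed the filter. With a mean of at least 5 FPKM, 142 genes were called for diet in wild type, 70 for genotype on control food, 472 for genotype on high sugar, 485 for diet in knockdown and 413 for the difference of diet effects. With no filter these were 242 for genotype on control food, 3982 for genotype on high sugar, 3996 for diet in knockdown and 3068 for the difference. For diet in wild type, 167 genes were called with no set term, 563 with separate means by group and set and 83 in the shared set alone. Separate means by group and set called 934 genes for genotype on control food. Over runs without 1 library the counts were 84 to 145 for genotype on control food and 92 to 150 for diet in the shared set.

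Same-numbered libraries did not deviate together once group and set means were removed (r over 0.1 in 5 of 18 pairs, -0.24 to 0.22), so the numbers were not taken as pairs. With a replicate block the counts were 247, 91, 1344, 1341 and 1118 genes, for diet in wild type, genotype on control food, genotype on high sugar, diet in knockdown and the difference of diet effects. Under the replicate block CG10960 on high sugar was 0.79 (adjusted p = 0.0505). Depth is unknown and limits what can be said of CG5171, CG5177 and Tret1-2.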
